A study of Rattus norvegicus with 8 samples.

Results

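The genes described here are the heat shock proteins and J proteins of the rat thoracic aorta, chosen by gene name alone: symbols that begin with Hspa, Hspb, Hspd, Hspe, Hsph or Hsp90, and Dnaja, Dnajb or Dnajc followed by a number. The name rule found 68 of the 19238 genes in the deposited table. Of these, 13 belonged to the HSP70 and HSP110 family, 2 to HSP90, 1 to HSP60 and HSP10, 8 to the small heat shock proteins, 4 to DnaJA, 12 to DnaJB and 26 to DnaJC, and 2 were proteins named for binding a heat shock protein. RNA of the thoracic aorta was compared between 4 GK rats and 4 control Wistar rats, all labelled as 7 to 8 weeks old. The GK (Goto-Kakizaki) strain is an inbred, non-obese model of type 2 diabetes derived from Wistar stock. The labels call the GK group diabetic macroangiopathy, and they name no treatment in either group. Strain and disease are therefore the same contrast and cannot be told apart. The libraries are called by the numbers in their titles, control 7 to control 10 and GK 7 to GK 10. The labels do not say whether a library came from 1 animal, so a p-value measures the spread between these libraries.

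HSP70 proteins fold other proteins in cycles of ATP binding and hydrolysis. J proteins bring them clients and start hydrolysis, and exchange factors of the HSP110, HSPBP1 and BAG type release the nucleotide. HSP90 matures signalling proteins, HSP60 folds imported proteins in mitochondria, and small heat shock proteins hold unfolding proteins and are abundant in muscle. Heat shock factor 1 drives the stress-inducible members through inverted repeats of GAA and TTC, and the unfolded protein response drives the ER members through a bipartite element, in vessels as in other tissues.

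The elements named above could be read in the promoter windows of some members, and are shown because the ER and heat-inducible members are described below as groups. RefSeq windows (assembly GRCr8), from 250 bases before to 50 bases after the start, were matched for 55 of the 68 members. The heat shock element was searched on both strands as alternating GAA and TTC units, each parted from the next by any 2 bases (NN). Its 3-unit form (GAA, NN, TTC, NN, GAA or the reverse order of units) was present in 0.736% of all 27457 windows and in 4 members, Dnaja1, Hspd1, Hsph1 and the RefSeq Hspa8 gene. The 2-unit form (GAA, NN, TTC or TTC, NN, GAA), which the 3-unit form contains, was present in 15.4% of all windows and in 14 members. The ER stress element (CCAAT, then NNNNNNNNN, then CCACG, either strand) was present in 0.0765% of all windows and in 3 members, Hspa5, Hsp90b1 and Dnajc3. Each stretch below lies before the start and is written 5′ to 3′ on the gene's strand, with the matched element, spacer included, in capitals. A match describes these letters and is not evidence of binding.
Hsph1, heat shock element, chr12:10427310-10427366, plus strand: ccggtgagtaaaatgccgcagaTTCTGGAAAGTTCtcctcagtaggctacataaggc
Hspd1, heat shock element, chr9:64084240-64084287, minus strand: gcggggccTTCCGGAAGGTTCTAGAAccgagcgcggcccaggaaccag
Hspb1, 2-unit heat shock elements, chr12:26432381-26432452, minus strand: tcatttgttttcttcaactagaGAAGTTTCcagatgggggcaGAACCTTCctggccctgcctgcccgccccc
Hspa5, ER stress element, chr3:38452951-38453013, plus strand: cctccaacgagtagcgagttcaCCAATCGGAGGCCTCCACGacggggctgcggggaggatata
Hsp90b1, ER stress elements, chr7:23012325-23012491, minus strand: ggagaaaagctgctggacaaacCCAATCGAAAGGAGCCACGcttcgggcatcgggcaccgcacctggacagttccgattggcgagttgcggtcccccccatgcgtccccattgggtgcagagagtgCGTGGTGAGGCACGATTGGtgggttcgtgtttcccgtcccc
Dnajc3, ER stress element, chr15:102432512-102432574, plus strand: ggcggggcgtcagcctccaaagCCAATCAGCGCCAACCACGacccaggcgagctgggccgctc

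Gene counts per library ran from 11760397 to 16266151. Levels are in CPM, counts scaled to library size with TMM factors, and folds are log2 GK minus control from edgeR with their standard error (SE). The libraries differed in the cells they held. Smooth muscle markers were detected in all 8 (10 of 10 genes, summed 5020 to 13804 CPM in control and 2610 to 7733 in GK). General adipocyte markers summed to 7353 to 12252 CPM in control and 12158 to 29121 in GK, and brown adipocyte markers to 567 to 2991 and 1495 to 4993. GK 9 stood apart: skeletal muscle markers (9 of 11 found) summed to 17090 CPM there and to at most 49.2 in any other library. Cardiomyocyte markers summed to 667 in control 7, 1212 in GK 7 and 2356 in GK 8, against at most 192 elsewhere. In tissue RNA, fewer cells of a type and less RNA per cell cannot be told apart. Counts of called members, and of called genes in the lists, are therefore given with and without GK 9.

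Of the members, 4 rose in GK and none fell. After a filter on low counts 62 of the 68 members were tested, and 4 were called higher at an adjusted p under 0.05 (edgeR quasi-likelihood test, Benjamini-Hochberg over 13673 genes): Hspa4l, Hspbp1, Hspa12b and Dnaja1. That is 6.45% of the tested members, against 7.28% of all genes tested, of which 3.96% were called higher and 3.31% lower. The share called is thus near the background. All 4 GK libraries lay above all 4 controls for 9 members, where 7.93% of all genes did so, and below them for 1 member, where 7.64% did. The median log2 fold change of the tested members was 0.18, against 0.00081 over all genes, and 42 of 62 members were above 0. At an unadjusted p under 0.05 there were 20 members (3 of them lower in GK), against 3775 of 13673 genes. Without GK 9, 17 members were called higher (11.2% of all genes were) and 3 lower (10.9% were): Dnajc18, Hspb2 and Hspb6. Without both libraries numbered 9, 15 members were called higher and the same 3 lower, where 9.74% and 8.91% of all genes were (18.7% in all). DESeq2 called 12 members higher and none lower, where it called 10.1% of all genes higher and 8.09% lower (18.2% in all). In the fit without GK 9, 22.1% of all genes were called. These shares over all genes are the background for the counts of each family, compartment and list below.

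**Figure D1:**
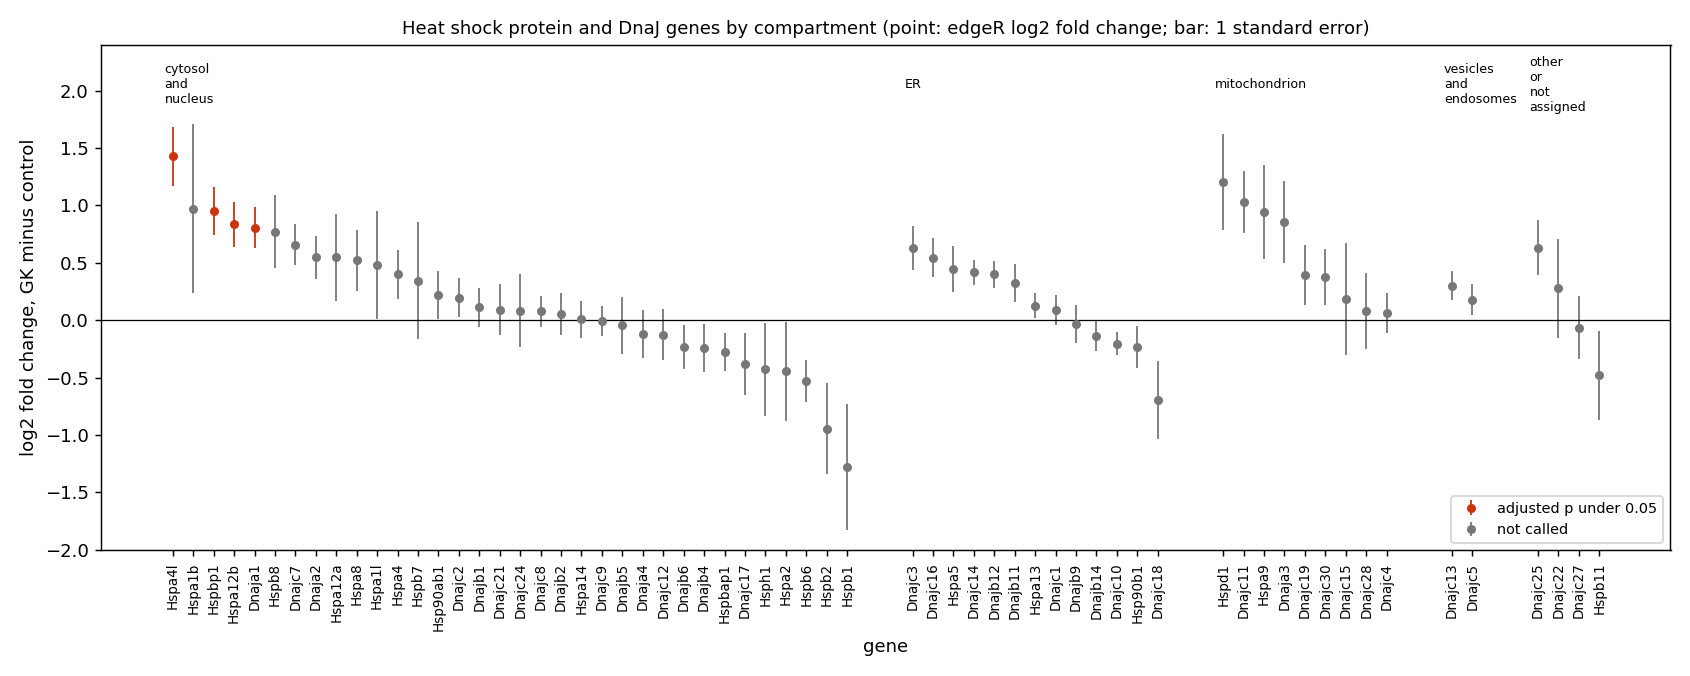
Log2 fold change, GK minus control, of the 62 tested members, ordered by compartment and by fold; points are edgeR estimates, bars 1 SE, and the 4 red points passed an adjusted p of 0.05. The 4 called members are among the 34 of cytosol and nucleus, while all 9 mitochondrial points lie above 0 with no call.

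The 4 called members were assigned to the cytosol and nucleus, as were 34 of the 62 tested members. The name rule itself picks HSP70 relatives and the proteins that work with them, so that trait is not particular to the calls. Hspa4l, an HSP110-type exchange factor (chr2:127625737-127677499 as the files give it), had 9.69, 7.21, 5.50 and 5.39 CPM in control 7 to 10 and 25.3, 19.4, 15.8 and 14.3 in GK 7 to 10. Every GK library was above every control, and the log2 fold change was 1.43 ± 0.26 (SE, n = 4 and 4, edgeR adjusted p = 0.0200). Hspbp1, an HSP70-binding exchange factor (chr1:72732668-72756082), had 7.19, 13.2, 12.1 and 11.6 CPM in control and 19.2, 23.5, 17.9 and 24.7 in GK. The groups did not overlap, with control 7 the lowest library, and the log2 fold change was 0.95 ± 0.21 (edgeR adjusted p = 0.0355).

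Dnaja1, a class A J protein of the cytosol (chr5:57028467-57039378), had 40.01, 43.9, 51.3 and 51.7 CPM in control and 108, 81.3, 65.2 and 72.0 in GK. Its groups did not overlap, GK 7 was the highest library, and the log2 fold change was 0.81 ± 0.18 (edgeR adjusted p = 0.0352). Hspa12b, a distant HSP70 relative known from endothelium (chr3:123670275-123687691), had 24.4, 15.9, 31.0 and 26.9 CPM in control and 47.4, 42.1, 39.8 and 46.2 in GK. Its groups did not overlap either, and the log2 fold change was 0.84 ± 0.20 (edgeR adjusted p = 0.0415; 0.0551 with no low-count filter, where it was not called). Endothelial markers were mixed: 4 of 9 tested were called higher and none lower (4 and 1 without GK 9), with a median log2 fold change of 0.48. Vwf (-0.51, edgeR adjusted p = 0.519) and Tie1 (-0.02, edgeR adjusted p = 0.949) had negative log2 fold changes. The markers summed to 700 to 1085 CPM in control and 1140 to 1410 in GK. Their part in the result for Hspa12b was not tested. The calls depended on which libraries were in the fit. No member was called without control 10, without GK 7 or without GK 8, where 135 of 13855, 187 of 13961 and 180 of 13896 genes were. Hspa4l was the 1 member called without GK 10, where 294 of 13967 genes were. With 1 library left out, the log2 fold changes ran from 1.25 to 1.64 for Hspa4l and 0.80 to 1.05 for Hspbp1. They ran from 0.68 to 0.98 for Hspa12b and 0.64 to 0.91 for Dnaja1. Their sign was bound to hold, because the groups of these 4 genes did not overlap.

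**Figure D2:**
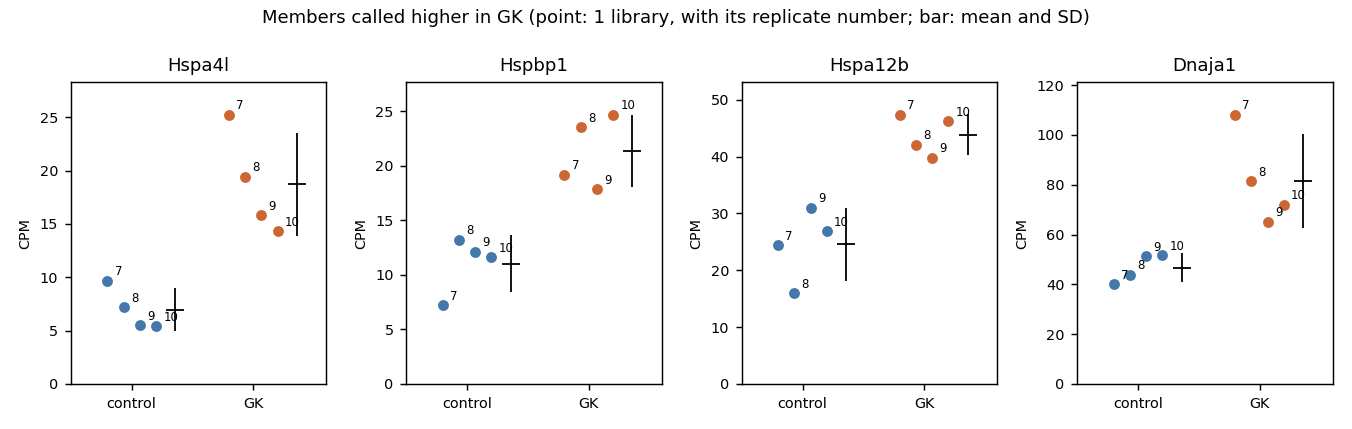
CPM of the 4 called members in each library (points with the replicate number of the label) with the mean and SD of each group (bars), on axes from 0. In each panel the lowest GK library lies above the highest control.

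No other cytosolic HSP70 or HSP110 member was called with all 8 libraries. Hspa4, the nearest relative of Hspa4l, had 161 ± 27 CPM in control and 212 ± 50 in GK (SD, n = 4), with overlapping groups (log2 fold change 0.40 ± 0.21, edgeR adjusted p = 0.256), and was called without GK 9 (0.56, edgeR adjusted p = 0.0477). The gene named Hspa8 was listed at 2.28 ± 0.58 CPM in control and 3.28 ± 0.48 in GK (edgeR adjusted p = 0.244), with all GK libraries above all controls. Its row lies on chromosome 5 in the files, whereas RefSeq places Hspa8, the constitutive Hsc70, on chromosome 8; of the 67 members found in RefSeq it was the 1 member on another chromosome. A further row described as Hsc70, LOC680121 on chromosome 11, had 47.7 ± 12.8 CPM in control and 96.6 ± 21.6 in GK (log2 fold change 1.02 ± 0.25, edgeR adjusted p = 0.0466). Another, AABR07070032.1 on chromosome 8, had 18.6 ± 7.6 and 32.6 ± 22.6 CPM with overlapping groups (0.81 ± 0.47, edgeR adjusted p = 0.303). Near-identical copies can split reads, so the level of Hsc70 itself is uncertain here. For the same reason the ratio of the Hspa8 row to Hsph1, 0.0187 ± 0.0074 in control and 0.0338 ± 0.0106 in GK with overlap, describes that row only. Stress-inducible Hspa1b was low in all libraries, at 0.294, 1.76, 6.57 and 2.46 CPM in control and 6.13, 3.23, 3.36 and 9.21 in GK. Its groups overlapped, and its log2 fold change of 0.97 ± 0.74 had a wide error (edgeR adjusted p = 0.418), from 0.60 without GK 10 to 1.87 without control 9. Hsp90aa1, Hspa1a and Hspe1 were not analysed here.

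Among the other cytosolic J proteins, Dnaja2 and Dnajc7 lay closest to the threshold. Dnajc7, which binds HSP70 and HSP90 through TPR repeats, had 63.2, 67.0, 49.9 and 50.1 CPM in control and 103, 92.1, 66.5 and 101 in GK. GK 9 lay just under control 8, and the log2 fold change was 0.66 ± 0.18 (edgeR adjusted p = 0.0582). Dnaja2 had 55.7 ± 8.3 CPM in control and 81.4 ± 17 in GK, again with GK 9 inside the control range (edgeR adjusted p = 0.108). Both were called without GK 9. Stress-inducible Dnajb1 had 22.7 ± 4.4 and 24.5 ± 3.3 CPM (0.11 ± 0.17, edgeR adjusted p = 0.695). The ratio of Dnaja1 to Dnajb1 was 2.11 ± 0.45 in control and 3.40 ± 1.07 in GK, with overlap. The most abundant class B members, Dnajb2, Dnajb4 and Dnajb6, had log2 fold changes of 0.06, -0.24 and -0.24 with overlapping groups. Hspbap1, which binds HSPB1, had -0.28 ± 0.17.

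The mitochondrial members were all higher on average in GK, yet none passed the test. All 9 had a log2 fold change above 0, against 50.05% of all genes tested, with a median of 0.39. The 9 genes were measured in the same 8 libraries and can move together, so their shared sign is not independent evidence. None was called by edgeR, 4 had an unadjusted p under 0.05, and DESeq2 called 2, Hspd1 and Dnajc11. Among all genes 3775 of 13673 had such a p, and DESeq2 called 18.2%. Hspd1, the HSP60 chaperonin, had 376, 336, 144 and 287 CPM in control and 847, 734, 253 and 799 in GK. GK 7, 8 and 10 lay above every control, and GK 9 lay within the control range (log2 fold change 1.20 ± 0.42, edgeR adjusted p = 0.112). Hspa9, the mitochondrial HSP70, had 498, 447, 169 and 343 CPM in control and 880, 778, 318 and 822 in GK, with control 9 and GK 9 the lowest of their groups (log2 fold change 0.94 ± 0.41, edgeR adjusted p = 0.175). Dnaja3, a class A J protein of mitochondria, had 111, 126, 51.7 and 70.96 CPM in control and 186, 195, 79.9 and 189 in GK (log2 fold change 0.86 ± 0.36, edgeR adjusted p = 0.163). Dnajc11, of the mitochondrial membrane contact sites, had 38.4, 52.4, 29.8 and 37.6 CPM in control and 94.1, 92.8, 43.7 and 92.1 in GK (log2 fold change 1.03 ± 0.27, edgeR adjusted p = 0.0556). In each of these 4 genes control 9 was the lowest control and GK 9 the lowest GK library. The other mitochondrial members were closer to 0, from 0.06 for Dnajc4 to 0.39 for Dnajc19. Dnajc15, a J protein of the inner membrane, had 121 ± 57 and 137 ± 61 CPM.

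The adipocyte markers were also higher on average in GK. Their part in the values of the mitochondrial members was not tested. A marker mean that differs between the groups cannot be fully told apart from the group. Over the general and brown adipocyte markers that passed the count filter (10 of 11 and 6 of 9 listed), the mean log2 CPM of the controls was 8.17, 8.46, 7.58 and 7.61. That of the GK libraries was 9.06, 9.13, 8.16 and 9.21, with GK 9 again the lowest. With that mean as a covariate the median of the 9 mitochondrial members was -0.35, with Hspd1 at -0.16, Hspa9 at -0.31 and Dnaja3 at -0.35. Dnajc11 kept its sign, at 0.14, and no mitochondrial member was called. With that covariate none of the 4 members called above was called, while their log2 fold changes were 1.11 ± 0.30 for Hspa12b, 1.04 ± 0.34 for Hspa4l, 0.78 ± 0.32 for Hspbp1 and 0.77 ± 0.29 for Dnaja1 (edgeR adjusted p = 0.0668 to 0.176). The median over all tested members was -0.0087. Hspa12a and Hspb8 were then called higher and no member lower, where 4.08% of all genes were called higher and 2.4% lower (6.48% in all). Both were highest in GK 9 (Hspa12a 66.6 CPM, at most 28.1 elsewhere; Hspb8 41.9 CPM, at most 24.8 elsewhere), the library with skeletal muscle markers, whose part was not tested. Without GK 9, Hspd1 (1.48), Dnajc11 (1.25), Hspa9 (1.19) and Dnaja3 (1.09) were called higher, where 11.2% of all genes were. Of 13 other mitochondrial chaperones and proteases tested, 1 was called higher and none lower, with a median of 0.63 (4 higher and none lower without GK 9). The gene called with all libraries was Spg7, a subunit of an inner membrane protease, with 39.2 ± 11.9 CPM in control and 115 ± 40 in GK (log2 fold change 1.56 ± 0.33, edgeR adjusted p = 0.0312).

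**Figure D3:**
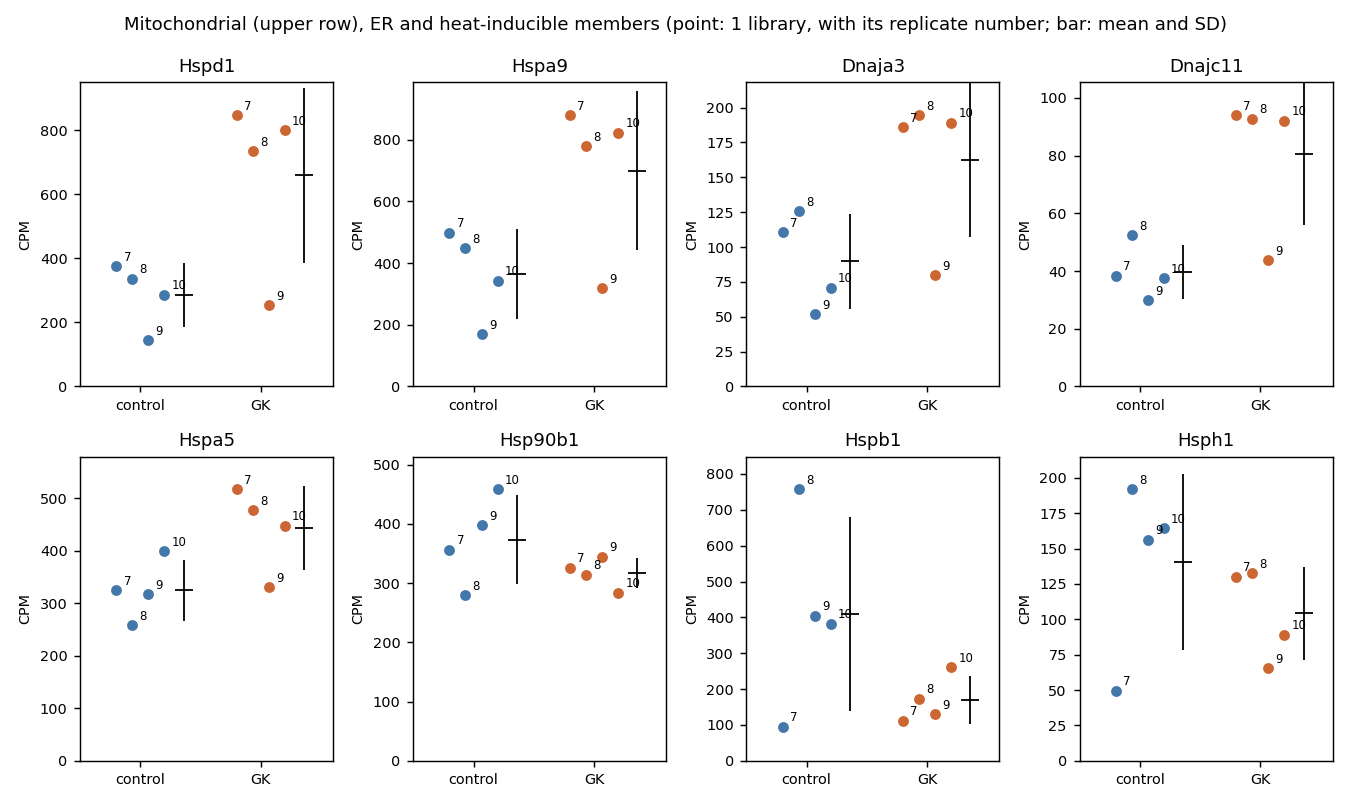
CPM in each library (points with the replicate number of the label), with the mean and SD of each group (bars), for 4 mitochondrial members (upper row), the ER members Hspa5 and Hsp90b1, and the heat-inducible Hspb1 and Hsph1 (lower row). In the upper row GK 9 falls inside the control range, and in the Hspb1 and Hsph1 panels control 7 lies below the other controls.

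The ER members did not move as one. Of 13 tested, edgeR called none (4 at an unadjusted p under 0.05, 4 called by DESeq2), 8 were above 0, and the median log2 fold change was 0.13. Over all genes, 3775 of 13673 had such a p, DESeq2 called 18.2%, and 50.05% were above 0. Without GK 9, 5 were called higher (Dnajb12, Dnajc14, Dnajc16, Dnajc3 and Hspa5) and 1 lower (Dnajc18), where 11.2% and 10.9% of all genes were. Hspa5 (BiP), the HSP70 of the ER, had 325, 258, 317 and 399 CPM in control and 517, 477, 331 and 448 in GK (log2 fold change 0.45 ± 0.20, edgeR adjusted p = 0.189; 0.58 without GK 9, edgeR adjusted p = 0.0489). Hsp90b1 (GRP94), its HSP90 partner in the ER, had 356, 280, 398 and 458 CPM in control and 326, 314, 345 and 284 in GK (-0.23 ± 0.18, edgeR adjusted p = 0.430). Both promoters hold the ER stress element printed above. The ratio of Hspa5 to Hsp90b1 was 0.913, 0.924, 0.797 and 0.870 in control and 1.59, 1.52, 0.960 and 1.58 in GK. Every GK ratio lay above every control ratio, GK 9 being the closest; no test was run on the ratio. Dnajc3, the third member with the element, had 69.4, 63.9, 57.98 and 68.7 CPM in control and 126, 110, 65.4 and 102 in GK (0.63 ± 0.19, edgeR adjusted p = 0.0831).

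Among the J proteins of the ER membrane and lumen, Dnajc14, Dnajc16 and Dnajb12 had all GK libraries above all controls. Dnajc14 had 25.9 ± 1.9 CPM in control and 34.6 ± 2.2 in GK (0.42 ± 0.11, edgeR adjusted p = 0.0556). Dnajc16 had 13.1 ± 2.2 and 19.1 ± 2.6 CPM (0.54 ± 0.17, edgeR adjusted p = 0.0868), and Dnajb12 53.8 ± 5.6 and 71.02 ± 5.6 CPM (0.40 ± 0.12, edgeR adjusted p = 0.0748). Dnajc10, a disulfide reductase, was the 1 member with all GK libraries below all controls: 94.2, 106, 98.7 and 104 CPM in control and 88.4, 86.3, 93.2 and 82.2 in GK (-0.20 ± 0.10, edgeR adjusted p = 0.242). Dnajc18, an ER membrane J protein, had 14.3 ± 3.6 and 8.83 ± 4.3 CPM (-0.70 ± 0.34, edgeR adjusted p = 0.220), and was called lower without GK 9. Of 27 other ER folding and unfolded protein response genes tested, 1 was called higher and 2 lower, with a median of -0.06 (2 higher and 5 lower without GK 9). Hyou1, an HSP110-type protein of the ER whose name lies outside the rule, rose from 132 ± 14 to 331 ± 107 CPM (1.33 ± 0.26, edgeR adjusted p = 0.0254). P4hb, a protein disulfide isomerase, fell from 237 ± 33 to 129 ± 22 CPM (-0.87 ± 0.17, edgeR adjusted p = 0.0246). Ern1, the IRE1 stress sensor, fell from 45.8 ± 4.9 to 29.6 ± 4.3 CPM (-0.63 ± 0.14, edgeR adjusted p = 0.0351).

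Most of the tested small heat shock proteins had lower mean levels in GK, and none was called by edgeR or DESeq2. At an unadjusted p under 0.05 there were 4, 3 of them lower, against 3775 of 13673 genes, 1838 of them lower. Without GK 9, Hspb2 and Hspb6 were called lower and none higher, where 10.9% and 11.2% of all genes were. Of 6 tested, Hspb11 included, 2 had a log2 fold change above 0, and the median log2 fold change was -0.51. The 2 were Hspb8 (0.77 ± 0.32, edgeR adjusted p = 0.161) and Hspb7 (0.35 ± 0.51, edgeR adjusted p = 0.687). Hspb1 (HSP27), inducible by heat and abundant in smooth muscle, had 94.8, 757, 405 and 383 CPM in control and 112, 173, 129 and 261 in GK (-1.28 ± 0.55, edgeR adjusted p = 0.172). All GK libraries lay below control 8, 9 and 10, while control 7 lay below every library. Without control 7 the log2 fold change was -1.60 (edgeR adjusted p = 0.0580), and without control 8 it was -0.80 (edgeR adjusted p = 0.339). Hspb6 (HSP20), of muscle, had 35.4, 42.8, 27.8 and 35.0 CPM in control and 20.4, 26.1, 30.6 and 20.4 in GK (-0.53 ± 0.19, edgeR adjusted p = 0.113), with GK 9 inside the control range. Hspb2, also of muscle, had 3.52 ± 1.2 and 1.82 ± 0.87 CPM (-0.94 ± 0.40, edgeR adjusted p = 0.165). Smooth muscle markers moved in the same direction: 1 of 10 was called lower (2 without GK 9; Lmod1, -1.37 ± 0.32, edgeR adjusted p = 0.0411) and none higher, with a median of -1.06; their part in the values of the small heat shock proteins was not tested. Hspb7, of heart and muscle, was highest in GK 8 (81.2 CPM), followed by control 8 (46.8) and GK 7 (44.6), and was at 26.0 in control 7. The cardiomyocyte markers summed to 2356 CPM in GK 8, 132 in control 8, 1212 in GK 7 and 667 in control 7. Their part in the level of Hspb7 was not tested. Hspb11, an intraflagellar transport subunit that shares only the name, had 9.06 ± 4.7 and 6.49 ± 1.8 CPM.

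Hsph1 and Hspa1b were also lowest in control 7. Hsph1 (HSP110), whose promoter holds the 3-unit element, had 49.5, 192, 156 and 164 CPM in control and 130, 133, 65.4 and 89.0 in GK (-0.43 ± 0.40, edgeR adjusted p = 0.514). Without control 7 it was at -0.70 (edgeR adjusted p = 0.154), without control 8 at -0.24 (edgeR adjusted p = 0.742) and without GK 9 at -0.25 (edgeR adjusted p = 0.683). Control 7 was less apart in other heat-inducible genes: without Hspb1, those of the list summed to 719 CPM in control 7, 1057, 841 and 947 in control 8 to 10, and 673 to 901 in GK. Of the 11 tested, Hspb1 included, Serpinh1, the collagen chaperone HSP47, was called lower (342 ± 70 and 165 ± 27 CPM, -1.05 ± 0.20, edgeR adjusted p = 0.0248) and none higher; without GK 9, 4 were called higher and 1 lower. Fibroblast markers fell with it: 3 of 8 were called lower (7 without GK 9) and none higher, and their part was not tested. The immediate early genes, which can rise quickly on handling of tissue, summed to 247 CPM in control 7 and to 376, 1113 and 931 in control 8 to 10, with 338 to 1403 in GK. Of 9 tested, edgeR called none (3 at an unadjusted p under 0.05, 1 called by DESeq2, and 1 higher without GK 9). Whether handling had a part in the values of control 7 was not tested.

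The chaperones that work with the members were mostly outside the calls. Over all genes, edgeR called 7.28% and DESeq2 18.2%, and 3775 of 13673 had an unadjusted p under 0.05. Without GK 9, 11.2% of all genes were called higher and 10.9% lower. Of 25 HSP90 and HSP70 co-chaperones tested, edgeR called none (6 at an unadjusted p under 0.05, 3 called by DESeq2, 4 higher and none lower without GK 9), with a median log2 fold change of 0.13. Fkbp8 had 156 ± 37 and 228 ± 57 CPM and Fkbp4 134 ± 29 and 133 ± 16. Of 15 subunits of the chaperonin TRiC and prefoldin, none was called by edgeR or DESeq2 (3 at an unadjusted p under 0.05, 3 called higher and none lower without GK 9), with a median of 0.11, and Cct5 had 177 ± 27 and 195 ± 34 CPM. Of 9 nucleotide exchange factors, Hyou1 was called higher and none lower, with a median of 0.09 (2 higher without GK 9). Among 6 heat shock factors and regulators tested, the 1 call, with or without GK 9, was the member Hspbp1. Neither of 2 cold-inducible genes, Rbm3 and Cirbp, was called by either tool with all libraries or had an unadjusted p under 0.05 there, and 1 was called lower without GK 9. They were at -0.17 ± 0.15 and -0.36 ± 0.18. The circadian clock, which can shift heat shock gene levels with the hour of collection, had 3 calls of 13 genes (3 higher and 2 lower without GK 9): Npas2 (-3.00 ± 0.30, edgeR adjusted p = 0.00294), Per1 (1.02 ± 0.20, edgeR adjusted p = 0.0268) and Arntl (-0.80 ± 0.20, edgeR adjusted p = 0.0471). Their part in the members' values was not tested, and the labels give no hour of collection.

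Per length, Hspb1 had the highest mean level of the members in control and Hsp90ab1 in GK. In the authors' FPKM, which divides by gene length, Hspb1 was at 487 ± 285 in control and 179 ± 57 in GK (SD, n = 4). Hsp90ab1, the constitutive cytosolic HSP90, was at 290 ± 40 and 302 ± 39. Hspd1 was at 133 ± 38 and 268 ± 90, Hspa9 at 132 ± 43 and 225 ± 63, Hspa5 at 136 ± 34 and 162 ± 17, and Hsp90b1 at 100.4 ± 29 and 76.1 ± 18. In control the levels of Hspa5, Hspd1 and Hspa9 were closer together than their SDs, so their order there has no meaning. The first places are not firm either. In control Hspb1 led Hsp90ab1 by less than the SD of Hspb1, and in control 7 it was at 109 against 253. In GK Hsp90ab1 led Hspd1 by less than the SD of Hspd1. Among J proteins Dnajc15 had 107 ± 43 and 108 ± 40 FPKM, and Dnajc13, the endosomal RME-8, had 15.2 ± 3.1 and 16.5 ± 2.1 FPKM with overlapping groups. On the CPM scale all GK libraries of Dnajc13 lay above all controls (103 ± 12 and 126 ± 8.5 CPM, 0.30 ± 0.13, edgeR adjusted p = 0.168). For low counts 6 members were not tested, namely Dnajb3, Dnajb7, Dnajb13, Dnajc6, Hspb3 and Hspb9. Dnajc6 (auxilin) reached 26.8 CPM in GK 9 and at most 0.892 in any other library, and Hspb3, of muscle, reached 4.19 CPM in GK 9 and at most 1.65 elsewhere.

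**Figure D4:**
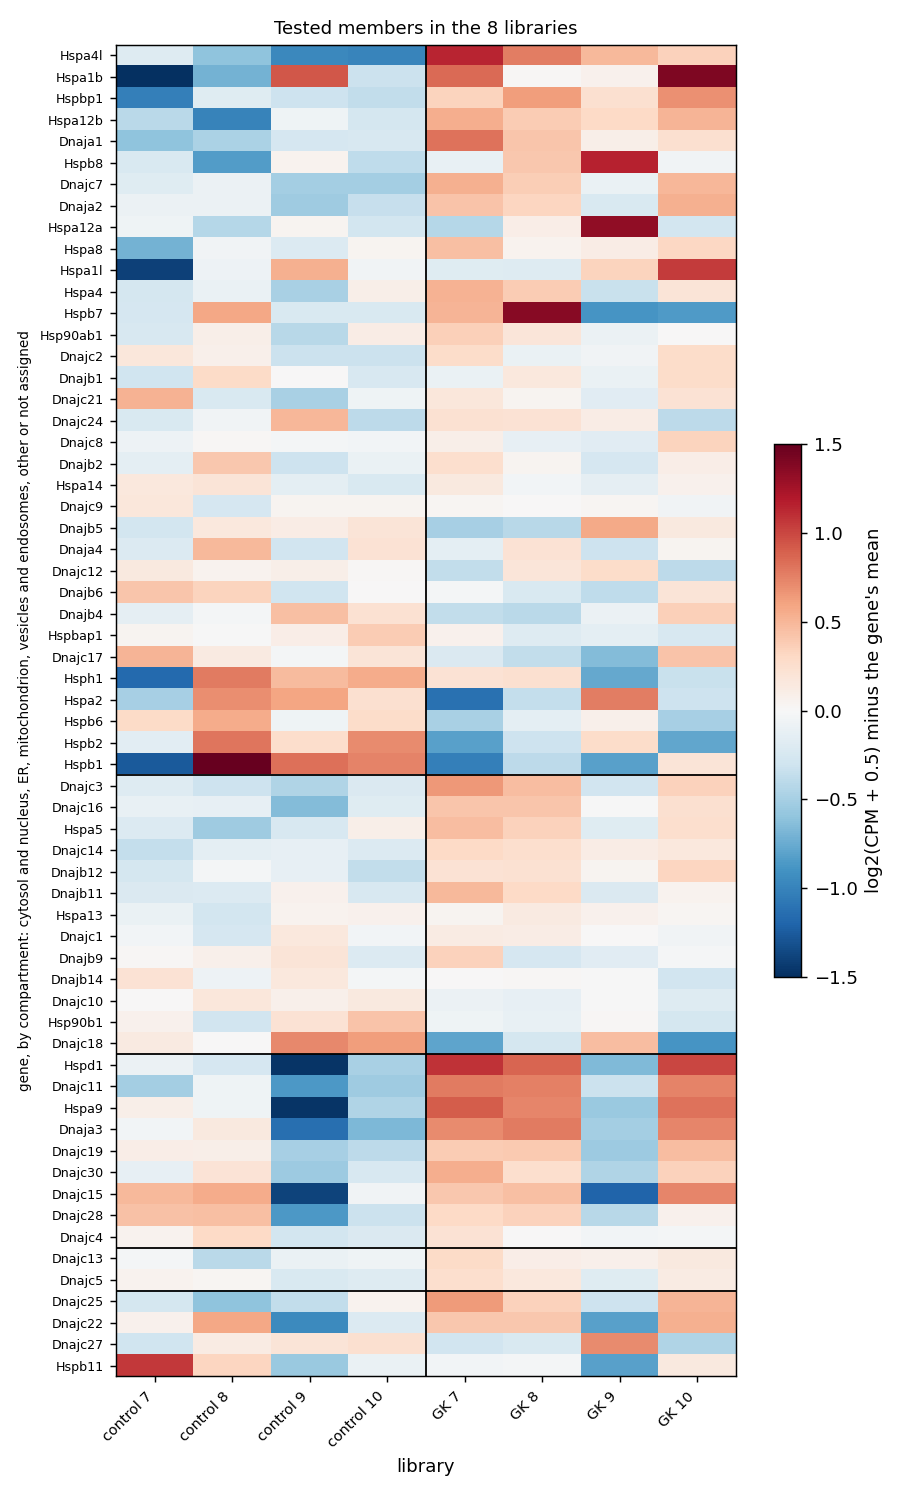
Log2 CPM of the 62 tested members in the 8 libraries, each gene centred on its own mean (red above, blue below), in the order of the plot of fold changes, with horizontal lines between compartments. The mitochondrial block is mostly red in GK 7, GK 8 and GK 10 and mostly blue in control 9 and GK 9, and Hspb1 and Hsph1 are blue in control 7.

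The authors' deposited table called 3 members UP and none DOWN, by a q-value under 0.05 and at least a 2-fold change of their FPKM means. These were Hspa4l (log2 fold change 1.28), Hspd1 (1.01) and Dnajc6 (4.10) in the authors' deposited table. The value of Dnajc6 rests on GK 9, where it reached 26.8 CPM against at most 0.892 in any other library. Hspa12b, Hspbp1 and Dnajc11 had q-values of 0.0464, 0.0455 and 0.0284 in the authors' deposited table, with less than a 2-fold change, and Dnaja1 had 0.0595. In the authors' deposited table of enrichment, response to heat held 9 called genes of 95 annotated (4 up, 5 down, q-value 0.258), with Hspd1 the 1 member among them. Protein folding held 8 of 157 (q-value 1) and protein processing in endoplasmic reticulum 8 of 158 (q-value 1), the latter with Hspa4l, in the authors' deposited tables.

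The lncRNA transcripts at member loci were not called. Of 79 transcripts that overlap the locus of 41 members in the files' coordinates, 43 were tested and none was called at an adjusted p under 0.05 (edgeR; 6 at an unadjusted p under 0.05 and none by DESeq2), where 2.74% of the 11683 tested were. The lowest p was that of NONRATT013744.2 within Hspa9 (log2 fold change 1.01 ± 0.31, edgeR adjusted p = 0.125). The authors' deposited table pairs 57 lncRNA with a member as target: 56 in trans with Dnajb13, a J protein of sperm flagella and cilia, and 1 in cis with Dnajc14. Dnajb13 itself was below the count filter, with at most 0.740 CPM in control and 1.30 in GK. The 5 paired lncRNA with the lowest p were MSTRG.23736.1 (-5.27 ± 0.52, edgeR adjusted p = 0.00305), NONRATT001106.2 (-2.54 ± 0.25, 0.00305), NONRATT020568.2 (2.81 ± 0.28, 0.00320), MSTRG.16205.16 (3.18 ± 0.34, 0.00357) and MSTRG.42230.1 (3.78 ± 0.47, 0.00641). Of the 24 paired lncRNA tested, 10 were called higher and 6 lower; the authors drew the pairs from their own called lncRNA, so this count describes that choice.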

How the data were processed

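RNA of 8 thoracic aortas (4 control, 4 GK) was grouped by title, strain and group label; the source name, which reads GK for every library, was set aside. Per the file headers, the deposited tables hold whole-number counts for genes and for lncRNA transcripts beside FPKM for each library. The log2 fold changes, p-values and q-values in the authors' deposited tables are their own, named edgeR in the file names with no version. No per-sample column lacked a sample (0 such columns). Per the submitters' processing notes, Bowtie 0.12.2 and the mouse builds mm8 and mm9 were among the tools, without a stated role; the sources used here give no rat build, and gene coordinates are printed from the files.

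Genes were tested in R 4.3.3 with edgeR 4.0.16 (filterByExpr, TMM, glmQLFit, glmQLFTest, group as the only term, Benjamini-Hochberg over all genes tested) and lncRNA likewise, with totals of 1185872 to 2031376. CPM is count over total times TMM factor (0.826 to 1.24), and SE is log2 fold change divided by root F. Tests were checked on simulated data. Alternatives were DESeq2 1.42.0, RLE factors, no filter, a 2-fold minimum, the replicate block, an adipocyte covariate, and libraries left out. Members, compartments (from textbook knowledge) and lists were chosen with earlier results of these data known. Named were the called members, the 3 most abundant per family, the 5 largest uncalled rises and falls at a mean log2 CPM of at least 1, members of 3 gene pairs (of 5 planned, those with both genes in the table), up to 3 called genes per list or else the 2 most abundant (of marker lists, only where a member's result turns on them), and the 5 paired lncRNA with the lowest p. Other members are named for their order between groups or a library that stood apart, chosen after their values were seen.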

Additional observations from a re-analysis of the deposited data

Results flagged for a closer look

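Of 60 groups of 4 libraries tested for an outlying library among the named members, 3 had one, about the 1 in 20 that chance gives. Dnaja3 in GK 9 was at 79.9 CPM and Dnajc11 in GK 9 at 43.7 CPM, each far below the other 3 GK libraries. Hspb7 in control 8 was at 46.8 CPM, far above the other 3 controls.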

How the results depend on the processing

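Counts of calls moved most on leaving out GK 9, and 4 libraries a group limit the precision. Against 995 genes called, with 4 members higher and 0 lower, the counts were 654 genes with 3 members higher with no low-count filter, where Hspa12b was not called (edgeR adjusted p = 0.0551), 2534 genes with 15 members higher and 3 lower without both libraries numbered 9, 2489 genes with 12 members higher by DESeq2, and 631 genes with 1 member higher at a 2-fold minimum. Leaving out 1 library gave 135 (without control 10) to 3046 genes (without GK 9), 0 to 17 members higher and 0 to 3 lower. The lncRNA count of 320 was 158 with no filter, 798 by DESeq2 and 108 to 581 with 1 library left out. RLE factors gave 5 members higher, adding Dnajc14. The median of the tested members, 0.18, was 0.12 (without GK 8) to 0.27 (without control 7) with 1 library left out.

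With the adipocyte covariate 2 members were called higher, and 10 named members changed sign: Dnaja2 (-0.022), Dnaja3 (-0.35), Dnajb1 (-0.16), Dnajb2 (-0.38), Dnajc15 (-1.44), Dnajc18 (0.21), Hsp90b1 (0.15), Hspa9 (-0.31), Hspb7 (-0.78) and Hspd1 (-0.16); the cause was not tested. With 1 library left out, 3 near 0 also did: Dnajb2 (-0.029 to 0.23), Dnajc15 (-0.092 to 0.47) and Hspb7 (-0.26 to 0.61).

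The replicate block, with the label numbers as a term, gave 2372 genes, 12 members higher (9.66% of all genes were) and 0 lower (7.69%). Libraries of numbers 7 and 9 deviated together, with correlations of 0.417 and 0.545. Those of numbers 8 and 10 hardly did (0.068 and 0.025). Control 7 correlated best with GK 7 and control 9 with GK 9, but control 8 with GK 10 (0.409) and control 10 with GK 9 (0.098). The labels do not say what a shared number stands for, and whether it marks a pair or a batch was not tested.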
